A study of Mus musculus with 4 samples.

Results

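The osteoclast-associated genes Acp5, Ctsk, Atp6v0d2, Nfatc1, Tnfrsf11a, Oscar, Ocstamp and Calcr were read in mouse dendritic cells with and without SAHA. These 8 genes, of 18194 genes read on the arrays, were chosen by name, and all probe sets annotated to them, 15 in all, were taken from the deposited values. Where a gene had several, the one with the highest 4-array mean stands for it, and the others are given beside it. The genes were picked with earlier results of this SAHA comparison in view, so their differences are given as a description. They were part of the fit over all genes, but nothing is read from whether they passed its threshold. Bone marrow of C57BL/6 mice, from at least 3 per experiment, was kept for 7 days in GM-CSF with IL-4, at 10 ng/ml each, and the cells were selected for CD11c to a stated purity of 95%. The control group was 2 arrays of cells given diluent for 12 hours, and the SAHA group was 2 arrays of cells given SAHA, at a dose the labels write as 500 nm, for the same time. SAHA (vorinostat) inhibits histone deacetylases. All 4 arrays therefore share the cytokine culture and the CD11c selection, and the labels do not say which animals or pools lay behind each array.

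Osteoclasts are the multinucleated cells that dissolve bone, and they form from precursors of the monocyte lineage, which bone marrow cultures also turn into macrophages and dendritic cells. The ligand RANKL engages the receptor RANK, encoded by Tnfrsf11a, while OSCAR and other receptors send a second signal through adaptor chains that carry ITAM motifs. Both converge on calcium signalling and on NFATc1, the transcription factor that, with MITF, PU.1 and AP-1 factors, switches on the genes for fusion, acid secretion and matrix digestion. Acp5 (tartrate-resistant acid phosphatase) and Ctsk (the collagen-cleaving protease cathepsin K) are the enzymes by which osteoclasts are usually recognised. Macrophages and dendritic cells can also express Acp5, so these genes do not by themselves mark an osteoclast.

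The promoters of 2 genes with lower values after SAHA, Acp5 and Ctsk, are shown with that of Oscar, whose values hardly moved, because NFATc1, MITF and PU.1 are the factors best known to act on these genes. Each window is a RefSeq sequence of build GRCm38.p6, from 250 bases before to 50 bases after an annotated start, on the gene's own strand. RefSeq promoters were read for Acp5, Ctsk, Tnfrsf11a, Oscar and Calcr, and none was read for Atp6v0d2, Nfatc1 and Ocstamp. The search for the named genes did not cover every chromosome, so a missing window does not show that RefSeq lacks it. Capitals mark every match, on either strand, to the NFAT core GGAAA, the MITF core CATGTG or the PU.1 core GAGGAA. The AP-1 site TGANTCA and the E-box CACGTG were searched too. Matches of GAGGAA and GGAAA overlap where the letters run together. The Acp5 window is the third of its 3 annotated starts, at chr9:22130549-22130848 on the minus strand. The Ctsk window is chr3:95498960-95499259 on the plus strand, and the Oscar window is chr7:3616108-3616407 on the minus strand.
Acp5: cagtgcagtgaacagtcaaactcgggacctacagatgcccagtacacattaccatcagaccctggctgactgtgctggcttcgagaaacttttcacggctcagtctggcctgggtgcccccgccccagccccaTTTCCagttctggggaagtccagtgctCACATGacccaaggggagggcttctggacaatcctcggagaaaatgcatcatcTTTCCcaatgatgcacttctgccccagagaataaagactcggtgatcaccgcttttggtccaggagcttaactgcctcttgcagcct
Ctsk: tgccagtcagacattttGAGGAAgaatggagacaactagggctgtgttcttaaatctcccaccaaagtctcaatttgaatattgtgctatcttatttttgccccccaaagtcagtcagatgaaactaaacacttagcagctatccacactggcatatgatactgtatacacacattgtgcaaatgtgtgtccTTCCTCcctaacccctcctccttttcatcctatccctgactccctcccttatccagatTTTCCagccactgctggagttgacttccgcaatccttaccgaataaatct
Oscar: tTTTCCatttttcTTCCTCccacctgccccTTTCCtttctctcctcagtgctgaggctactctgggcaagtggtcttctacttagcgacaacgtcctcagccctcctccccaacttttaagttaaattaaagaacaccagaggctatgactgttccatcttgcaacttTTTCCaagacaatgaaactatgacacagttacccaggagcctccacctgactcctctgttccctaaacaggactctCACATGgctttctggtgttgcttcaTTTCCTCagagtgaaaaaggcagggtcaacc

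The third Acp5 window held 1 match to the MITF core, starting 90 bases before the start, and 2 to the NFAT core. Each of the first and second Acp5 windows held 1 NFAT core and none of the other motifs. The Ctsk window held 1 NFAT core and 2 PU.1 cores and no MITF core, and the Oscar window held 4 NFAT cores, 1 MITF core and 2 PU.1 cores. Neither the AP-1 site nor the E-box CACGTG was found in any of these windows, nor in those of Tnfrsf11a and Calcr. Among 32851 RefSeq promoter windows of the same length 61.3% held the NFAT core, 14.2% the MITF core, 28.3% the PU.1 core, 7.81% the AP-1 site and 7.15% the E-box CACGTG. A match describes the letters and does not show binding.

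Values are log2 probe set values, and probe sets of different genes bind with different strength, so no gene's level is set against another's. To show what genes not used by these cells read like, 14 genes of unrelated tissues, such as the growth hormone gene and the albumin gene, were read. They spanned 3.10 to 7.21 over the 4 arrays, with medians of 4.01 to 4.59 per array. The upper end came from Hcrt, at 6.65 to 7.21, and the next highest gene, Ins2, reached 6.43. Values between 6.43 and 7.21 thus lay within the range through Hcrt alone. Dendritic cell markers such as Cd74, the invariant chain of MHC class II, read 14.2 on every array, and Itgax, which encodes CD11c, read 12.4 to 13.4. Of the 10 dendritic cell markers Cd209a lay within the range of the unrelated tissues, at 4.47 to 4.68. Flt3 read 7.10 and 7.48 in control and 6.72 and 7.15 with SAHA, above that range on control replicate 2 alone. For a single gene, 2 arrays against 2 allow an exact permutation p of 0.333 at the lowest (two-sided). The labels call the arrays biological replicates. The p-values below come from limma, which draws each gene's spread between arrays towards that of genes of similar level. They therefore do not rest on the spread of that gene alone. Over all genes 405, or 2.23%, passed the threshold (limma, Benjamini-Hochberg adjusted p under 0.05), 1.52% higher and 0.709% lower with SAHA.

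Acp5 and Ctsk, the 2 matrix and acid enzymes of the set, were lower in both SAHA arrays than in either control array. Acp5 read 11.92 and 11.90 in control and 10.28 and 9.97 in SAHA-treated cells. The control arrays nearly coincided, and both SAHA arrays lay more than 1.5 log2 units below them. The difference was -1.78 ± 0.15 log2 units (moderated SE), which is 3.44-fold lower. Ctsk read 10.70 and 10.25 in control and 9.16 and 9.40 in SAHA-treated cells, again without overlap. Its difference was -1.19 ± 0.19 log2 units, or 2.28-fold lower. Each gene has 1 probe set, that of Acp5 being of a type made to match several transcripts of a gene. In bulk RNA, fewer cells of a type and less RNA per cell cannot be told apart.

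All values of both genes, SAHA arrays included, lay above the range of the unrelated tissues. Between arrays of the same number Acp5 differed by -1.64 and -1.93, and Ctsk by -1.53 and -0.85. Of all 18194 genes, 0.0879% had a lower difference than Acp5 and 0.456% a lower one than Ctsk. Of the 8 genes, 2 lay past the threshold over all genes, both lower, beside the 2.23% of all genes, and nothing is read from that count since the choice of genes used this contrast. Without each array in turn the difference of Acp5 was -1.94 to -1.63. That of Ctsk was -0.97 without control replicate 1 and -1.42 without control replicate 2. It was -1.07 without SAHA replicate 1 and -1.31 without SAHA replicate 2. The control arrays lay 0.45 apart for Ctsk, a wider gap than in 89.0% of genes. For Acp5 they lay 0.02 apart, wider than in 7.49%. The difference of Ctsk was thus less even over the arrays than that of Acp5.

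**Figure D1:**
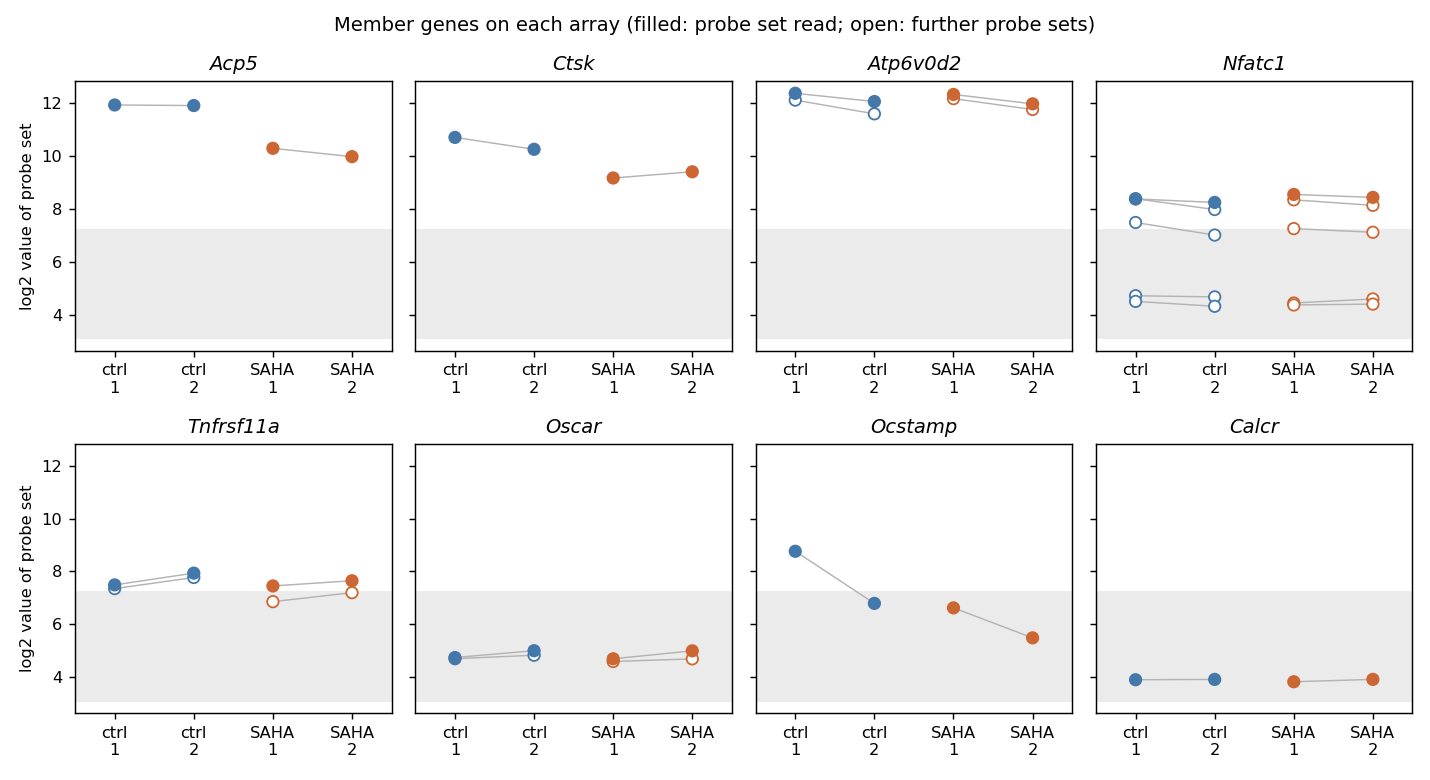
Log2 value of every probe set of the 8 genes on the 2 control arrays (blue) and 2 SAHA arrays (orange). Filled points are the probe set by which the gene was read, open points its further probe sets, lines join the arrays of a group, and the grey band spans the 14 genes of unrelated tissues, 3.10 to 7.21. Acp5 and Ctsk step down with SAHA, while Atp6v0d2 stays between 11.59 and 12.36 over both of its probe sets.

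Other enzymes of the same families did not show differences of that size. The lysosomal cathepsins that share the papain-type fold of Ctsk had differences that did not pass, with Ctsb at 0.00 ± 0.09 (limma, adjusted p = 0.999), Ctsl at 0.11 ± 0.10 (0.580) and Ctss at -0.08 ± 0.09 (0.676), each ± SE. Ctsz, a further member of that family named after its values were seen, had -0.24 ± 0.09 (0.247), with 14.15 and 14.16 in control and 13.88 and 13.96 with SAHA and no overlap. Ctss read 14.47 and 14.56 in control and 14.40 and 14.47 with SAHA. Over the 4 arrays Ctsb read 14.38 to 14.39 and Ctsl 13.70 to 13.89, and the highest value of any probe set was 14.97. Whether values so near the top of the scale can show a change was not tested. Acp2, the lysosomal acid phosphatase, read 11.05 and 11.35 in control and 10.88 and 10.88 in SAHA-treated cells (-0.32 ± 0.14, adjusted p = 0.308), and was named after its values were seen. That these relatives differ from Acp5 or Ctsk in their response was not tested.

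Among the 10 other matrix-degrading enzymes and acid hydrolases measured, 1 fell, none rose and 9 did not pass. Over all genes 0.709% passed on the lower side and 1.52% on the higher side. The median of the list was -0.06 beside -0.05 for all genes. Mmp14, a membrane-bound metalloproteinase that cleaves collagen, fell. It read 11.27 and 11.17 in control and 10.22 and 10.33 with SAHA, a difference of -0.94 ± 0.13 (SE, limma, adjusted p = 0.0266), and its further probe sets gave -1.10 and -0.72. The call was lost without SAHA replicate 1 (adjusted p = 0.173) and without SAHA replicate 2 (0.0919), with differences of -0.889 and -0.997.

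Atp6v0d2, the d2 subunit of the proton pump's membrane sector, which osteoclasts need for fusion, read 12.36 and 12.05 in control and 12.32 and 11.96 in SAHA-treated cells. The groups overlapped and differed by -0.07 ± 0.17. Its second probe set read 12.11 and 11.59 in control and 12.16 and 11.75 with SAHA, a difference of 0.11. In both groups and in both probe sets the array of replicate 1 was the higher one. Its widely expressed paralog Atp6v0d1 followed the same order, with 11.83 and 11.59 in control and 12.05 and 11.72 with SAHA (0.17 ± 0.16, adjusted p = 0.605). Tcirg1, the a3 subunit of the osteoclast pump, had a difference of -0.05 ± 0.21 (0.922).

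None of 14 measured genes for acid secretion passed in either direction, and their median was 0.17. The largest differences in this list among genes above the median level were those of Car2, carbonic anhydrase 2, which supplies the protons, at -0.69 ± 0.13 (adjusted p = 0.0610), and of Ostm1, the partner of the chloride transporter ClC-7, at 0.40 ± 0.14 (0.20).

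Ocstamp, a membrane protein required for osteoclast fusion, read 8.76 and 6.79 in control and 6.62 and 5.49 in SAHA-treated cells. The groups did not overlap, but the control arrays lay 1.97 log2 units apart, a wider gap than in 99.9% of genes. In both groups the replicate 2 array was the lower one. Arrays of the same number differed by -2.14 and -1.30, and the group difference was -1.72 ± 0.65. Without control replicate 1 it was -0.74, and without control replicate 2 it was -2.71. All its values but that of control replicate 1 lay within the range of the 14 genes of unrelated tissues, so a fold change is not given.

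Dcstamp, the related fusion protein, read 12.17 and 11.36 in control and 12.32 and 11.27 with SAHA. Here too replicate 1 was higher in both groups, but the groups overlapped (0.03 ± 0.39, adjusted p = 0.977). None of the 8 measured fusion genes passed. Sh3pxd2a, a scaffold of the actin structures called podosomes, had -0.85 ± 0.17 (adjusted p = 0.0614) and Sirpa, the receptor for CD47, -0.43 ± 0.15 (0.20).

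**Figure D2:**
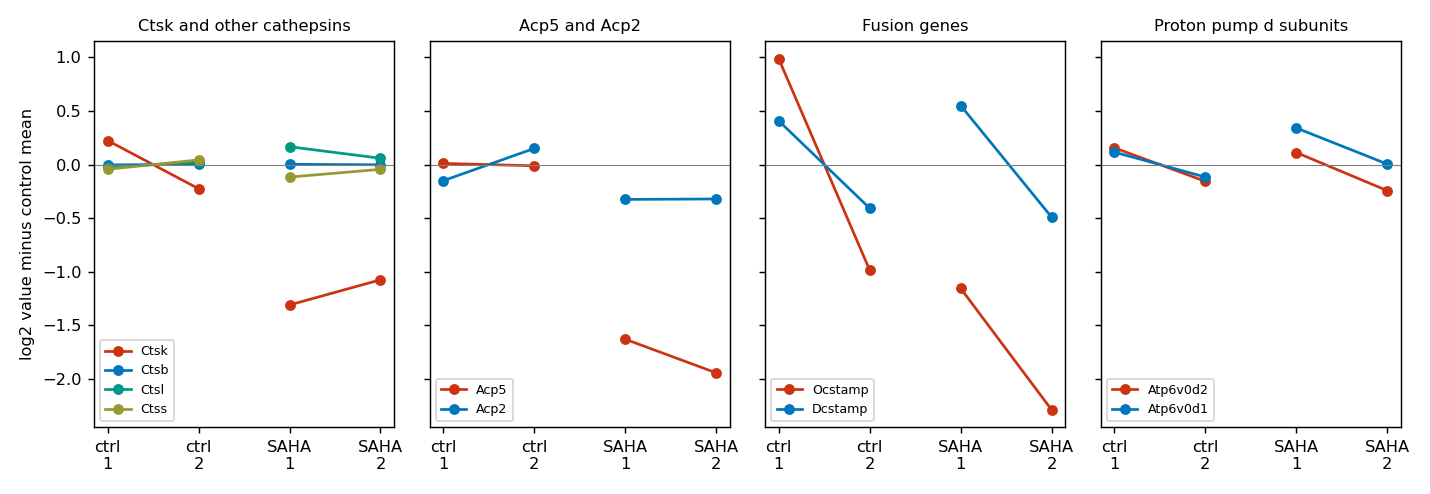
Log2 value on each array minus the gene's own control mean, for Ctsk with other cathepsins, Acp5 with Acp2, Ocstamp with Dcstamp and Atp6v0d2 with Atp6v0d1. Lines join the arrays of a group. Acp5 and Ctsk lie below 0 on both SAHA arrays, whereas Ctsb, Ctsl and Ctss differ from 0 by less, and Ocstamp and Dcstamp are higher on replicate 1 than on replicate 2 within each group.

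Nfatc1 read 8.37 and 8.24 in control and 8.54 and 8.43 in SAHA-treated cells in the probe set read, a difference of 0.18 ± 0.15. The groups did not overlap here, with SAHA slightly higher. The second probe set read 8.38 and 7.97 in control and 8.34 and 8.13 with SAHA, and these groups overlapped. The other three probe sets gave -0.06, -0.18 and -0.03, and the last 2 of these read 4.31 to 4.71, within the range of the unrelated tissues. Over its 5 probe sets the sign of the difference was therefore mixed, and no difference exceeded 0.18 in size.

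Among the calcineurin and NFAT genes, through which calcium activates NFATc1, none of 7 passed and the median was -0.03. Rcan1, an inhibitor of calcineurin that NFAT itself induces, had -0.64 ± 0.22 (limma, adjusted p = 0.207). It read 8.58 and 9.20 in control and 8.28 and 8.21 with SAHA. Nfatc2, another NFAT factor, had 0.38 ± 0.15 (0.259).

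The 14 genes listed as regulators of transcription in osteoclasts also gave no call, with a median of -0.14. Mitf had -0.37 ± 0.13 (adjusted p = 0.217), Spi1, which encodes PU.1, -0.22 ± 0.15 (0.487) and Fos, an AP-1 subunit, -0.41 ± 0.15 (0.226). Mitf read 10.88 and 10.72 in control and 10.45 and 10.42 with SAHA. The widest differences in the list were 0.61 ± 0.13 for the AP-1 subunit Jun (0.0788) and -0.50 ± 0.17 for Prdm1 (0.198), whose product Blimp1 shuts off repressors of osteoclast genes.

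Of the repressors themselves none of 5 measured passed, and 4 had differences above 0 (median 0.23). Id1, an inhibitor of helix-loop-helix factors, had 0.80 ± 0.20 (adjusted p = 0.110) and Bcl6, a zinc finger repressor of Nfatc1 and its targets, 0.60 ± 0.22 (0.229). Irf8, which restrains NFATc1 and drives dendritic cell development, had -0.32 ± 0.18 (0.412).

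Tnfrsf11a, the receptor RANK, read 7.49 and 7.94 in control and 7.45 and 7.65 in SAHA-treated cells, and the groups overlapped (-0.16 ± 0.20). Its second probe set read 7.35 and 7.77 in control and 6.86 and 7.20 with SAHA, without overlap, a difference of -0.53. In both probe sets and both groups replicate 2 was the higher array, opposite to Ocstamp and Atp6v0d2. These values lie close to the upper end of the range of unrelated tissues. Tnfsf11, which encodes RANKL, read 4.24 to 4.29 on all 4 arrays and Tnfrsf11b, its decoy receptor osteoprotegerin, 3.76 to 4.15, both within that range.

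None of the 8 ligands and growth factor receptors passed. The genes with the widest differences were Csf1, the macrophage growth factor M-CSF, at 1.28 ± 0.64 (adjusted p = 0.358), and Csf2ra, the GM-CSF receptor alpha chain, at -0.87 ± 0.19 (0.0830). Csf2ra read 13.03 and 12.56 in control and 12.09 and 11.75 with SAHA. Downstream of RANK none of 15 signalling genes passed, with a median of -0.11. The NF-kB subunits Relb and Nfkb2, of the pathway that RANK activates through the kinase NIK, had -0.79 ± 0.19 (limma, adjusted p = 0.0948) and -0.57 ± 0.14 (0.110). The differences were not confined to that pathway. Rela, a further NF-kB subunit, had -0.56 ± 0.13 (0.0924) and Ikbkb -0.54 ± 0.12 (0.0927). Map3k14, which encodes NIK, had 0.07 ± 0.18 (0.855). These 15 genes had 7 without overlap on the lower side and 0 on the higher side.

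Oscar, the osteoclast-associated immunoglobulin-like receptor that binds collagen, read 4.75 and 5.005 in control and 4.70 and 5.0002 in SAHA-treated cells. The groups overlapped (-0.03 ± 0.17), and all 8 values of its 2 probe sets lay within the range of unrelated tissues. Its second probe set gave a difference of -0.12. The ITAM adaptors through which such receptors signal were high on all arrays, with Tyrobp (DAP12) at 13.80 to 13.94 and Fcer1g, the Fc receptor gamma chain that pairs with OSCAR, at 13.42 to 13.57. Their differences were -0.11 ± 0.09 (adjusted p = 0.586) and -0.10 ± 0.10 (0.621). None of 9 genes of this list passed (median -0.11). Trem2, a receptor that pairs with DAP12, had -0.69 ± 0.13 (0.0553) and the kinase Syk 0.43 ± 0.13 (0.153).

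Calcr, the calcitonin receptor by which osteoclasts are held back, read 3.91 and 3.92 in control and 3.83 and 3.92 in SAHA-treated cells, within the range of the unrelated tissues. The groups overlapped, and no difference is read from values this low. Of its possible partners Ramp1, an accessory chain that turns calcitonin-type receptors towards other peptides, rose. Ramp1 read 8.94 and 8.26 in control and 10.64 and 9.95 with SAHA, a difference of 1.69 ± 0.30 (limma, adjusted p = 0.0489), or 3.22-fold. The call was lost without control replicate 2 (0.0624), without SAHA replicate 1 (0.204) and without SAHA replicate 2 (0.0574), at differences of 1.35, 1.34 and 2.03. Its further probe sets, at 3.64 to 5.63, gave 0.01 and 0.08. Ramp2 read 3.69 to 3.89, and Ramp3 had -0.41 ± 0.33 (0.550), with replicate 2 the higher array in both groups.

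Among 7 genes of attachment and sealing 1 fell, none rose and 6 did not pass, beside 0.709% of all genes lower and 1.52% higher. Src, the tyrosine kinase that osteoclasts need to form a ruffled border, read 7.83 and 7.92 in control and 6.76 and 6.95 with SAHA (-1.02 ± 0.16, SE, limma, adjusted p = 0.0378). Its second probe set gave -1.04. Both SAHA values, and all 4 values of the second probe set, lay within the range of the 14 genes of unrelated tissues, so no fold change is given. The call was lost without control replicate 2 (0.0624), without SAHA replicate 1 (0.236) and without SAHA replicate 2 (0.108), at differences of -0.98, -0.92 and -1.12.

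Over all 11 lists of the pathway, 101 of 108 genes were measured and the others were not analysed here. Of these 101, 1 rose (Ramp1), 2 fell (Src and Mmp14) and 98 did not pass, beside 1.52% of all genes higher and 0.709% lower. The median difference was -0.03, against -0.05 over all genes. The values of control and SAHA did not overlap for 53 of the 101, with 31 lower and 22 higher. Over all genes 50.7% did not overlap, 29.6% lower and 21.1% higher. Of the 8 genes chosen by name 3 did not overlap on the lower side (Acp5, Ctsk and Ocstamp) and 1 on the higher side (Nfatc1). Without SAHA replicate 1, and likewise without SAHA replicate 2, 0 of the 101 passed in limma, with 17 and 20 at an unadjusted p under 0.05.

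**Figure D3:**
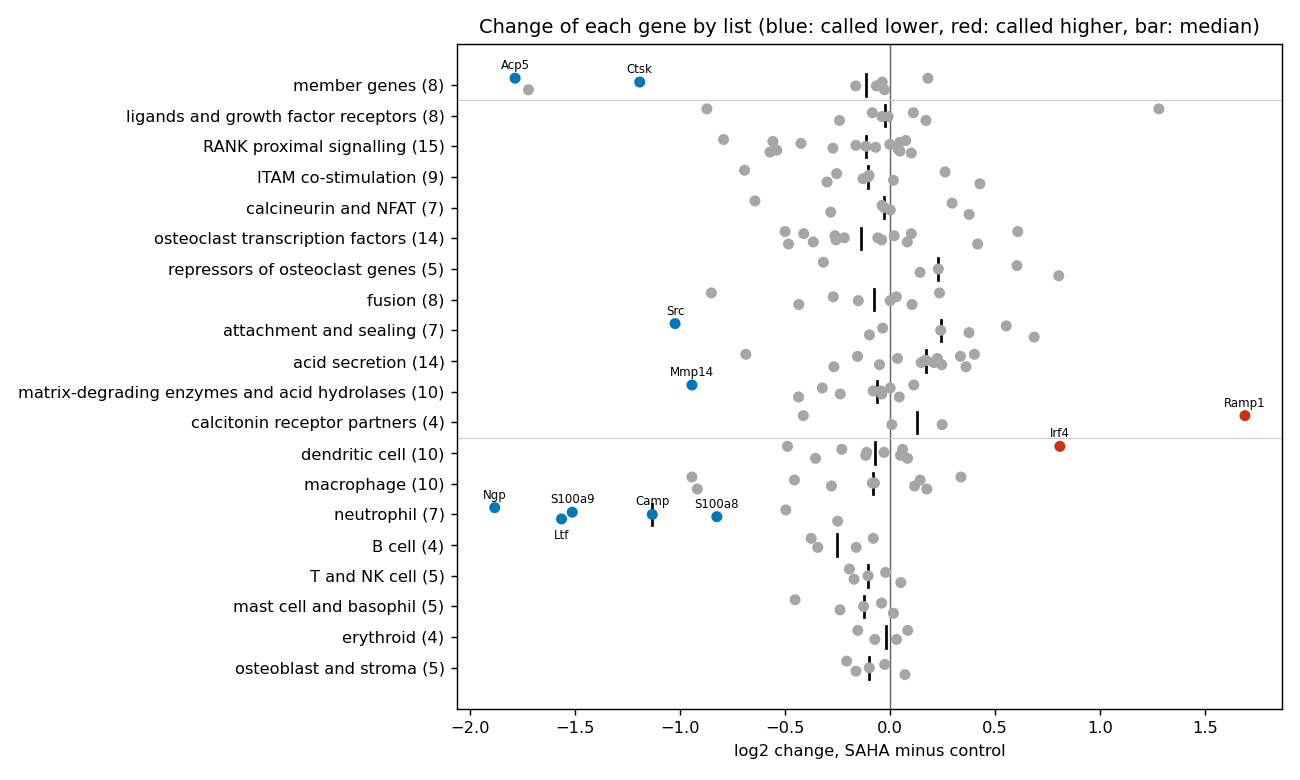
Difference in log2 value, SAHA minus control, for each gene of the 8 named genes (top), of the 11 pathway lists and of 8 lists of cell type markers, with the number measured in brackets. Blue points passed the threshold over all genes on the lower side and red points on the higher side, and black bars are medians. For the 8 named genes nothing is read from the colour, since their choice used this contrast. Pathway genes past the threshold are Src, Mmp14 and Ramp1, and among marker lists the neutrophil genes lie lowest, with a median of -1.13.

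Markers of neutrophils were lower together with Acp5 and Ctsk. Of 7 measured neutrophil markers 5 fell (Ngp, S100a9, Ltf, Camp and S100a8), none rose and 2 did not pass. Over all genes 0.709% passed on the lower side and 1.52% on the higher side. The lists were chosen with earlier results of these data known. The median of the 7 neutrophil markers was -1.13. The sum of their 7 log2 values was 51.9 and 52.4 in control and 44.5 in each SAHA array. The granule genes Mpo and Elane, which did not pass, read 3.62 to 5.61, within the range of unrelated tissues. So did Camp, at 6.72 and 6.88 in control and 5.85 and 5.48 with SAHA, while Ltf lay above that range on control replicate 2 alone. Ngp read 8.20 and 8.05 in control, and its SAHA values of 6.28 and 6.22 lay in that range. Without SAHA replicate 1 none of the 5 passed (limma, adjusted p = 0.0593 to 0.204), and without SAHA replicate 2 Ngp and S100a9 did. Without control replicate 1 S100a8 missed the threshold (0.0750), and without control replicate 2 Camp (0.0622) and S100a8 (0.0582) did. The part of these genes in the differences of Acp5 and Ctsk was not tested. Of 10 macrophage markers none passed. Their summed log2 values were 105.3 and 107.9 in control and 103.1 and 106.1 with SAHA, so the sums overlapped. Between arrays of the same number the sum was lower with SAHA for both numbers. Within this list Mertk, a receptor for dying cells, had -0.92 ± 0.17 (limma, adjusted p = 0.0509), with no overlap, and Marco, a scavenger receptor, -0.94 ± 0.49 (0.373), lower in both same-number comparisons (-0.98 and -0.91). C1qa, C1qc and Fcgr1 lay 0.77 to 1.53 apart between the replicates of a group. These 5 were named after their values were seen, and their part in the differences of Acp5 and Ctsk was not tested either. Of 10 dendritic cell markers 1 rose, none fell and 9 did not pass, beside 1.52% of all genes higher and 0.709% lower. It was Irf4, a transcription factor of dendritic cells, at 0.81 ± 0.14 (0.0431), and the call was lost without control replicate 2 (0.105), without SAHA replicate 1 (0.279) and without SAHA replicate 2 (0.154). Markers of B cells, of T and NK cells, of erythroid cells and of osteoblasts and stroma read 3.51 to 6.39, and none passed. Of 5 mast cell and basophil markers none passed either.

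The genes whose pattern over the 4 arrays was most like that of Acp5 were sought among 9096 genes above the median level, by the root mean square difference after each gene's own mean was taken off. They were Ngp, a neutrophil granule protein, at 0.112 log2 units, Slc4a8, a bicarbonate transporter, at 0.127, and Tspoap1 at 0.140. Ctsk came at rank 43 for Acp5 (0.385), and Acp5 at rank 529 for Ctsk. Nearest to Ctsk were Dok2, an adaptor of tyrosine kinase signalling, at 0.0644, Ptges, a prostaglandin E synthase, at 0.0983, and Prmt3, an arginine methyltransferase, at 0.109. Nearest to Atp6v0d2 were Pld3, Reep5 and Tcf3, at 0.0131 to 0.0205, all with differences between -0.07 and -0.04. Likeness over 4 arrays is a description of these arrays.

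**Figure D4:**
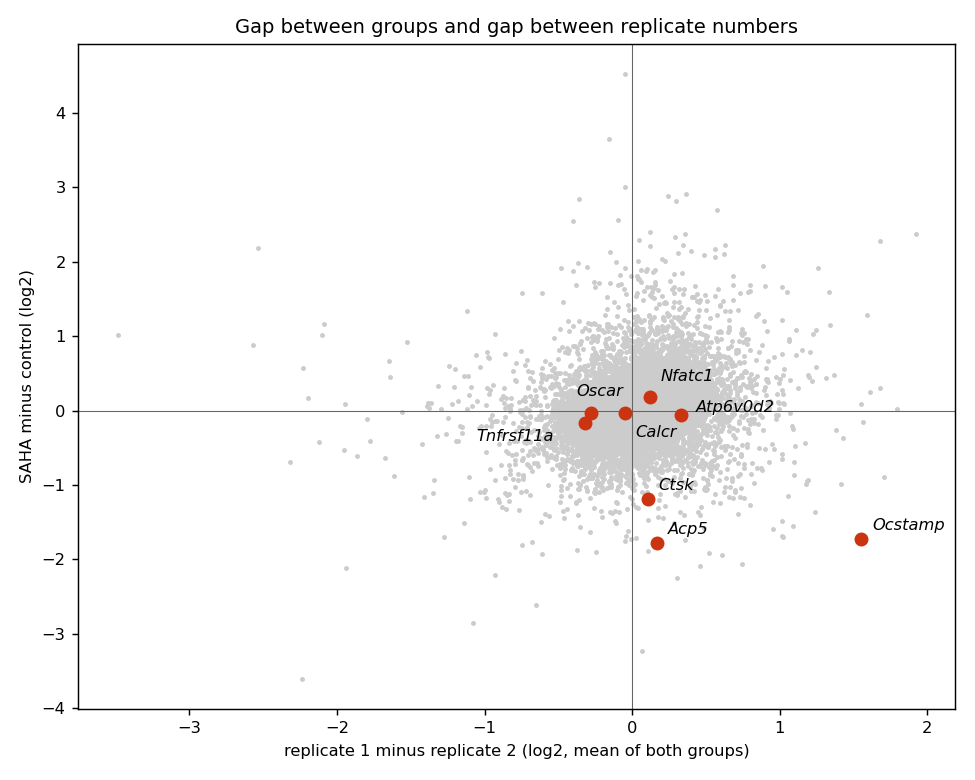
Difference between groups (SAHA minus control, log2, vertical axis) against the difference between replicate numbers (replicate 1 minus replicate 2, log2, mean of both groups, horizontal axis) for all 18194 genes (grey) and the 8 named genes (red). Acp5 and Ctsk lie low and near the centre line, Ocstamp lies low and far to the right, and the others lie near 0 on the vertical axis. For Ctsk the mean on the horizontal axis hides gaps of opposite sign, 0.45 in control and -0.23 in SAHA.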

How the data were processed

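Total RNA was labelled as biotinylated cRNA and hybridised to 4 Affymetrix arrays, 2 control and 2 SAHA, grouped by sample title. The authors deposited 1 table of log2 values for 45101 probe sets. The log2 scale was read from the values, which span 2.59 to 14.97 with medians of 5.34 to 5.35 per array. The submitters' processing notes name R 2.7, and the sources used here do not state how probes were summarised and normalized. Of the probe sets 34958 carried 1 gene symbol, updated through RefSeq for 34754, and 932 carried several and were left out. The probe set of highest mean stood for each gene, which gave 18194. The fit was limma 3.58.1 in R 4.3.3 (lmFit, eBayes with an intensity trend), two-sided, without covariates, with Benjamini-Hochberg adjustment over all genes. It was also run on simulated data, with noise drawn separately for each array. Gaps shared by arrays of the same replicate number were not simulated, so error rates for these arrays do not follow from that run. Arrays give no depth, and their number limits the precision.

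The named genes and lists were chosen with earlier results of these data known. Text names the 8 genes, genes of a list past the threshold or else the 2 with the largest change above the median level (6.47), partners and paralogs fixed by name, and the 3 genes most alike in pattern. Alternatives were no trend, robust spread, quantile normalization, a floor at the 20th percentile, probe set means, genes above the median alone, a replicate block and fits without each array, in which a lone array takes its spread from the other group.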

Additional observations from a re-analysis of the deposited data

How the results depend on the processing

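The sign of the Acp5 and Ctsk differences was the same under all 11 alternatives run, but most of these could not change it. The trend, spread, floor, probe set mean, median level and block settings left both differences as they were, at -1.78 and -1.19. Quantile normalization gave -1.80 and -1.24. Fits without an array gave Acp5 at -1.94 to -1.63 and Ctsk at -1.42 to -0.97. Such fits cannot reverse the sign where groups do not overlap. The number of the 8 genes past the threshold was 2 without the trend, with robust spread and with quantile normalization. It was 1 (Acp5, not Ctsk) with probe set means and among genes above the median level, and 0 with the floor at the 20th percentile. With that floor 0 of all genes passed in limma (3034 at an unadjusted p under 0.05) and 0 of the pathway genes (26). Nothing is read from the counts of the 8 genes, here or with the block below, since their choice used this contrast. Among genes above the median level 226 of 9097 genes passed, and the median difference of the 6 named genes left was -0.68 against -0.11 for 8, since Oscar and Calcr are not among them. Without each array in turn 31 to 529 genes passed, 0 to 4 pathway genes passed, and the median of the named genes was -0.27 to -0.13. Ramp1 also missed the threshold without the trend, with robust spread, with probe set means (0.60) and among genes above the median level, and Irf4 with probe set means (0.53) and among genes above the median level. The cause was not tested. With the floor none of the pathway and marker genes named as changed passed. With the replicate number as a block 3616 genes, 37 pathway genes and 3 named genes (Acp5, Ctsk and Ocstamp) passed. Replicate 1 minus replicate 2 in control and in SAHA correlated at 0.567 across genes, which are not independent. With 2 numbers, and no label tying them to shared cultures, the block was not used for calls. Oscar, Calcr and the lower Ocstamp values lay within the range of unrelated tissues, which limits what they can show.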

Other observations

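The growth factor gene Csf1 had a higher group mean with SAHA in each of its 4 probe sets, with differences of 0.55, 1.13, 1.06 and 1.28, but the values of the groups overlapped in 3 of the 4. Replicate 1 was the higher array in both groups for all 4. In the probe set read it was 9.73 and 8.13 in control and 10.99 and 9.42 with SAHA. The complement genes C1qa and C1qc, made by macrophages, ran the other way between replicate numbers, with C1qa at 10.56 and 11.86 in control and 10.88 and 12.22 with SAHA, and C1qc at 11.51 and 12.28 and at 11.63 and 12.50. These genes were named after their values were seen.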
